A study of Homo sapiens with 27 samples.

Results

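The 7 genes described here, CPSF1, CPSF2, CPSF3, CPSF4, WDR33, FIP1L1 and SYMPK, encode the subunits of the cleavage and polyadenylation specificity factor (CPSF) and its scaffold partner symplekin. They were chosen by name from the 20268 genes in 4 tables of poly(A)-ClickSeq (PAC-seq) read counts. PAC-seq reads start from the poly(A) tail of an RNA and are taken to mark the place where it was cleaved and tailed. Reads primed at A-rich sequence inside an RNA do not mark such a place and can also enter the counts. The counts were made in 3 human prostate cancer lines, hormone-sensitive LNCaP and hormone-insensitive LNCaP95 and 22Rv1. Each line was transduced with a pGIPZ lentivirus carrying either a control shRNA (CTRL sh) or an shRNA that targets CPSF1, of which there were 2, named CPSF1 sh1 and CPSF1 sh2, and transduced cells were kept under puromycin as stable pools. Cells were grown for 72 h before RNA was taken, LNCaP95 in medium free of phenol red, and each of the 9 groups had 3 libraries. All control cells carried the vector and the selection as well. The question was whether the 6 partners of CPSF1 changed in level, or in the region where their own transcripts ended, when CPSF1 was reduced.

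CPSF recognizes the AAUAAA signal upstream of a poly(A) site and cuts the nascent RNA downstream of it. WDR33 and CPSF4 (CPSF30) contact the signal itself, CPSF1 (CPSF160) holds these subunits together, and FIP1L1 (Fip1) links them to poly(A) polymerase. CPSF3 (CPSF73) is the endonuclease, CPSF2 (CPSF100) is its inactive relative, and symplekin joins both to the rest of the machinery and also serves histone mRNA processing.

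Regions and signals are given in GRCh37 coordinates. The 3′ UTR count of WDR33 came from 3 separate pieces on the minus strand of chromosome 2, 1 at the end of the gene and the others, 128492662 to 128495578 and 128519807 to 128522046, inside it. The count therefore pools transcripts of different lengths. For CPSF2 the counted 3′ UTR on the plus strand of chromosome 14 ended at 92631055, and the 10 kb region after it ran to 92641054. A newer Gencode annotation of the same build places the end of CPSF2 at 92638489, inside that 10 kb region. A poly(A) signal near an internal end of WDR33 and one near the newer end of CPSF2 are shown because WDR33 was called in the 3′ UTR and CPSF2 in the 10 kb region. Each stretch of 30 bases is in the direction of transcription with the signal in capitals.
WDR33, internal end, chr2:128492963-128492992, minus strand: ttctgaccttcaAATAAAacttattatgta
CPSF2, end in the newer annotation, chr14:92638457-92638486, plus strand: tagcaattgtgaAATAAAcagattctgaag
Among 19540 genes, 59.4% had AATAAA and 17.1% had ATTAAA on the gene's strand in the last 50 bases before the annotated end, and 72.9% had either. These letters were found before the annotated ends of CPSF3, SYMPK (AATAAA) and CPSF4 (ATTAAA), and were not found in this window before the CPSF2 end used for the counts, before the WDR33 internal end at 128520107 or before the FIP1L1 ends.

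The libraries held 3452410 to 12425400 reads over the 4 tables, 1725670 to 6549380 of them in 3′ UTRs but only 170330 to 728430 in the 10 kb regions, which were the least precise. All 9 markers of luminal prostate cells were tested in each line. Their summed level in 3′ UTRs was 6332 to 6467 CPM (counts scaled to the library's total in that table) in control and 4371 to 5017 in knockdown LNCaP libraries, 10032 to 11091 against 6165 to 7510 in LNCaP95, and 3148 to 3648 against 3323 to 4167 in 22Rv1. The sum over 3 neuroendocrine markers was also lower after knockdown in LNCaP (8.42 to 19.5 against 47.3 to 54.9 CPM) and LNCaP95 (16.3 to 30.9 against 59.7 to 92.5 CPM), led by the glycolytic enzyme ENO2. The 3 leukocyte markers summed to 4.33 to 7.37 CPM in control and 11.9 to 27.6 after knockdown in LNCaP95, 1.91 to 5.18 against 4.63 to 10.1 in LNCaP and 2.69 to 7.06 against 1.39 to 8.56 in 22Rv1, with CD68 the marker tested. The 3 basal markers summed to 0.941 to 1.83 CPM against 1.89 to 6.17 in LNCaP, 0.607 to 2.90 against 3.01 to 5.96 in LNCaP95 and at most 0.463 in 22Rv1. The 4 fibroblast markers summed to 12.3 to 19.3 CPM against 7.72 to 13.4 in LNCaP, 38.2 to 44.5 against 28.4 to 39.3 in LNCaP95 and 5.78 to 10.5 against 7.51 to 11.8 in 22Rv1. The part of any of these shifts in the results was not tested. In bulk samples, fewer cells of a type and less RNA per cell cannot be told apart. The study calls the 3 libraries of a group biological replicates. The sources name no separate cultures, so p-values measure the spread between these libraries.

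CPSF1 reads in the 3′ UTR fell in each line. In LNCaP they were at 168, 132 and 126 CPM in the control libraries, 63.0, 50.8 and 65.4 with sh1 and 49.0, 91.5 and 58.1 with sh2. In LNCaP95 they were at 106, 71.7 and 120 CPM in control, 37.3, 38.3 and 53.9 with sh1 and 66.3, 49.4 and 43.4 with sh2. The 22Rv1 values were 200, 132 and 144 CPM in control, 102, 89.2 and 113 with sh1 and 92.9, 84.2 and 90.0 with sh2. Every knockdown library lay below every control library of its line. Over both shRNAs the log2 change was -1.19 (SE 0.168, adjusted p = 8.31e-05, edgeR) in LNCaP, -1.05 (SE 0.182, adjusted p = 0.000301) in LNCaP95 and -0.73 (SE 0.143, adjusted p = 0.0164) in 22Rv1. The 95% intervals left 0.344 to 0.560, 0.370 to 0.628 and 0.489 to 0.744 of the control level. Differences in this fall between lines were not called, the widest being 0.48 (SE 0.259, adjusted p = 0.317) for 22Rv1 against LNCaP. In 22Rv1 the call was lost without control replicate 3, sh2 replicate 2 or sh2 replicate 3, where adjusted p rose to 0.0545, 0.0511 and 0.0514.

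**Figure D1:**
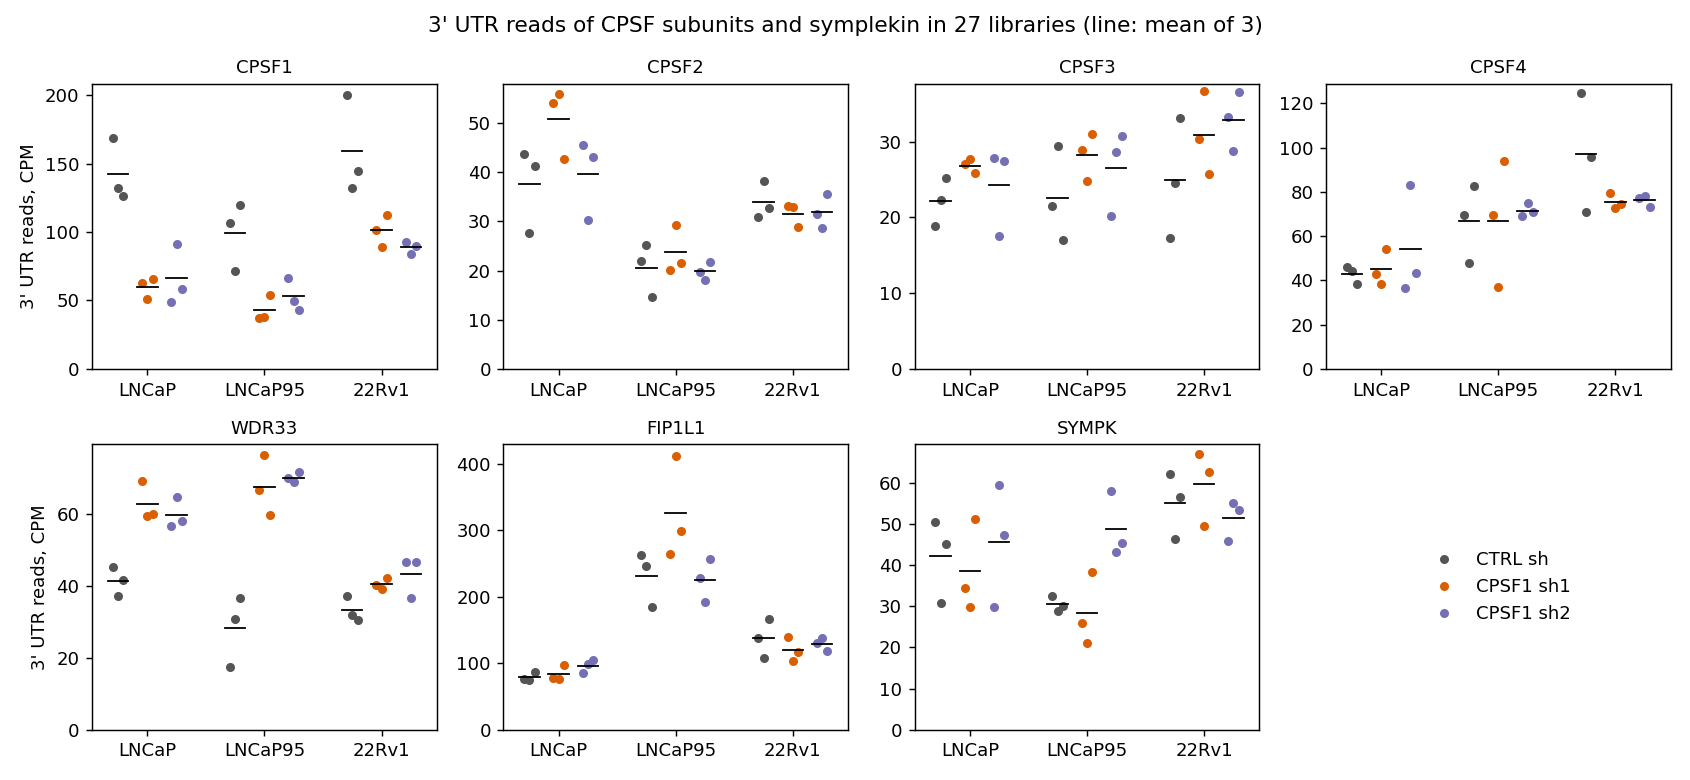
3′ UTR level (CPM, linear axes from 0) of the 7 genes in each of the 27 libraries, by line and shRNA, with a line at each group's mean. CPSF1 points of the knockdown groups lie below all control points in every line, WDR33 points lie above them in LNCaP and LNCaP95, and control and knockdown points of the other 5 genes overlap in every line when the shRNAs are pooled.

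With each shRNA taken alone, the CPSF1 change in 3′ UTR reads was -1.25 with sh1 and -1.13 with sh2 in LNCaP, and -1.20 and -0.91 in LNCaP95, all called. In 22Rv1 sh2 was called at -0.82 (SE 0.162, adjusted p = 0.0104, edgeR) and sh1 was not, at -0.64 (SE 0.162, adjusted p = 0.12). The sh2 call was lost without any of its own 3 libraries (adjusted p = 0.0586, 0.0715 and 0.0648). Both contrasts share the 3 control libraries. The difference between the shRNAs was -0.19 (SE 0.160, adjusted p = 0.672) in 22Rv1, so a weaker effect of sh1 was not shown. Among all genes tested in the 3′ UTR, sh1 changed 16.1%, 20.8% and 0.443% and sh2 changed 12.5%, 26.5% and 3.48% in LNCaP, LNCaP95 and 22Rv1.

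WDR33 was the only partner called in the 3′ UTR over both shRNAs, and it rose in LNCaP and LNCaP95. In LNCaP its level was 45.4, 37.4 and 41.6 CPM in control, 69.3, 59.5 and 60.2 with sh1 and 56.8, 64.8 and 58.1 with sh2. In LNCaP95 it was 17.6, 30.7 and 36.6 CPM in control, 66.7, 76.6 and 59.7 with sh1 and 70.1, 68.9 and 71.7 with sh2. In 22Rv1 it was 37.2, 32.0 and 30.6 CPM in control, 40.3, 39.3 and 42.4 with sh1 and 46.8, 36.7 and 46.7 with sh2. All knockdown libraries lay above all controls in LNCaP and LNCaP95, whereas in 22Rv1 the lowest knockdown library fell below the highest control. The log2 change was 0.57 (SE 0.137, adjusted p = 0.00731, edgeR) in LNCaP, 1.29 (SE 0.189, adjusted p = 6.59e-05) in LNCaP95 and 0.36 (SE 0.146, adjusted p = 0.268) in 22Rv1. Without control replicate 2 the LNCaP call was lost, at 0.49 (adjusted p = 0.0542).

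Thus LNCaP and LNCaP95 each had 1 of 6 partners called and 22Rv1 had 0 of 6, while 18.3%, 30.5% and 1.47% of all genes tested in the 3′ UTR were called in these lines, in that order. The unadjusted p was under 0.05 for 2 partners in 22Rv1, CPSF4 and WDR33. DESeq2 gave the same counts. The median log2 change of the 6 partners was 0.21, 0.27 and -0.04, against 0.02, 0.01 and -0.01 for all genes. Their single values ran from -0.01 to 0.57, from 0.05 to 1.29 and from -0.34 to 0.36. The difference of these medians from all genes was not tested. With library sizes summed over the 4 tables in place of each table's own scale, the share of calls that were higher went from 50.1% to 36.9% in LNCaP95 and from 46.2% to 21.4% in 22Rv1, where the median of all genes moved to -0.10. CPSF1 and WDR33 kept their directions and calls under that scale.

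The rise of WDR33 differed between lines. It was larger in LNCaP95 than in LNCaP by 0.73 on the log2 scale (SE 0.212, adjusted p = 0.0243, edgeR, 27 libraries), and 22Rv1 minus LNCaP95 was -0.92 (SE 0.219, adjusted p = 0.00568). The difference between 22Rv1 and LNCaP, -0.19 (SE 0.217, adjusted p = 0.699), was not called. Of all genes, 9.58% differed between LNCaP95 and LNCaP, 5.11% between 22Rv1 and LNCaP and 10.7% between 22Rv1 and LNCaP95. WDR33 was the only member called in any of these tests of the 3′ UTR. Without LNCaP95 control replicate 1, the lowest of those libraries, the difference from LNCaP was 0.47 (adjusted p = 0.135). It was also not called without LNCaP control replicate 1 (adjusted p = 0.0777) or 3 (adjusted p = 0.0545). With summed library sizes it was 0.59 (adjusted p = 0.0804).

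With each shRNA alone, WDR33 was called in LNCaP and LNCaP95. In LNCaP it was 0.60 with sh1 (adjusted p = 0.0134, edgeR) and 0.53 with sh2 (adjusted p = 0.0346), and in LNCaP95 1.26 (adjusted p = 0.000722) and 1.31 (adjusted p = 0.000332). In LNCaP the sh1 call was lost without any of 3 libraries and the sh2 call without any of 6. The sh2 call was also lost with the replicate number as a block (adjusted p = 0.0593) and with the shRNA fitted alone (adjusted p = 0.0654).

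CPSF2, CPSF3, CPSF4 and FIP1L1 were not called in the 3′ UTR with the shRNAs pooled or alone. The 95% intervals of their pooled changes and those of SYMPK ran from 0.636 times the control level (CPSF4 in 22Rv1) to 1.77 times (SYMPK in LNCaP95). CPSF4 in 22Rv1 had the lowest estimate among partners, -0.34 (adjusted p = 0.309). SYMPK was called with sh2 in LNCaP95 only. It stood at 32.6, 28.9 and 30.2 CPM in control, 25.9, 21.1 and 38.3 with sh1 and 58.1, 43.2 and 45.3 with sh2. The sh2 libraries were above all others, and the sh1 libraries overlapped the controls. The log2 change was 0.67 with sh2 (SE 0.210, adjusted p = 0.027, edgeR) and -0.10 with sh1 (adjusted p = 0.769). The difference between the shRNAs, 0.77 (SE 0.211), had an adjusted p of 0.636, and the sh2 call was lost without any of 5 libraries.

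Between sh2 and sh1, 0 of 6 partners were called in the 3′ UTR in each line by edgeR. The unadjusted p was under 0.05 for 2 partners, FIP1L1 and SYMPK, in LNCaP95 and for none in the other lines. Of all genes, 0.0363%, 0% and 0.0522% were called in LNCaP, LNCaP95 and 22Rv1.

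Summed over the 4 tables, the only call among partners was WDR33 in LNCaP95. Its reads went from 59.9, 78.2 and 63.4 CPM in control to 89.2, 103 and 87 with sh1 and 94.1, 90.5 and 92.5 with sh2. All knockdown libraries were above all controls. The log2 change was 0.46 (SE 0.123, adjusted p = 0.00658, edgeR), smaller than in the 3′ UTR, and was not called without control replicate 1 (0.38, adjusted p = 0.0621). In LNCaP it was 0.16 (adjusted p = 0.248) and in 22Rv1 0.28 (adjusted p = 0.118). The change in LNCaP95 was not shown to differ from LNCaP (0.32, adjusted p = 0.113) or from 22Rv1 (22Rv1 minus LNCaP95 -0.17, adjusted p = 0.452). CPSF1 ranged from 71.7 to 90.9 CPM in control and 34.7 to 50.7 after knockdown in LNCaP, 47.4 to 69.9 against 25.3 to 34.5 in LNCaP95, and 87.5 to 105 against 56.7 to 67.5 in 22Rv1. CPSF1 fell by 0.99, 1.03 and 0.63 on the log2 scale in LNCaP, LNCaP95 and 22Rv1 (adjusted p = 2.08e-05, 2.06e-05 and 0.000994).

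So LNCaP and 22Rv1 had 0 of 6 partners called in all reads and LNCaP95 had 1 of 6. Of all genes, 27.5%, 34.3% and 7.57% were called (LNCaP, LNCaP95, 22Rv1). The unadjusted p was under 0.05 for 0, 1 and 2 partners, and DESeq2 called the same numbers. For CPSF2, CPSF3, CPSF4, FIP1L1 and SYMPK, the 95% intervals in the 3 lines lay between 0.664 times the control level (CPSF4 in 22Rv1) and 1.48 times (CPSF3 in LNCaP95).

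**Figure D2:**
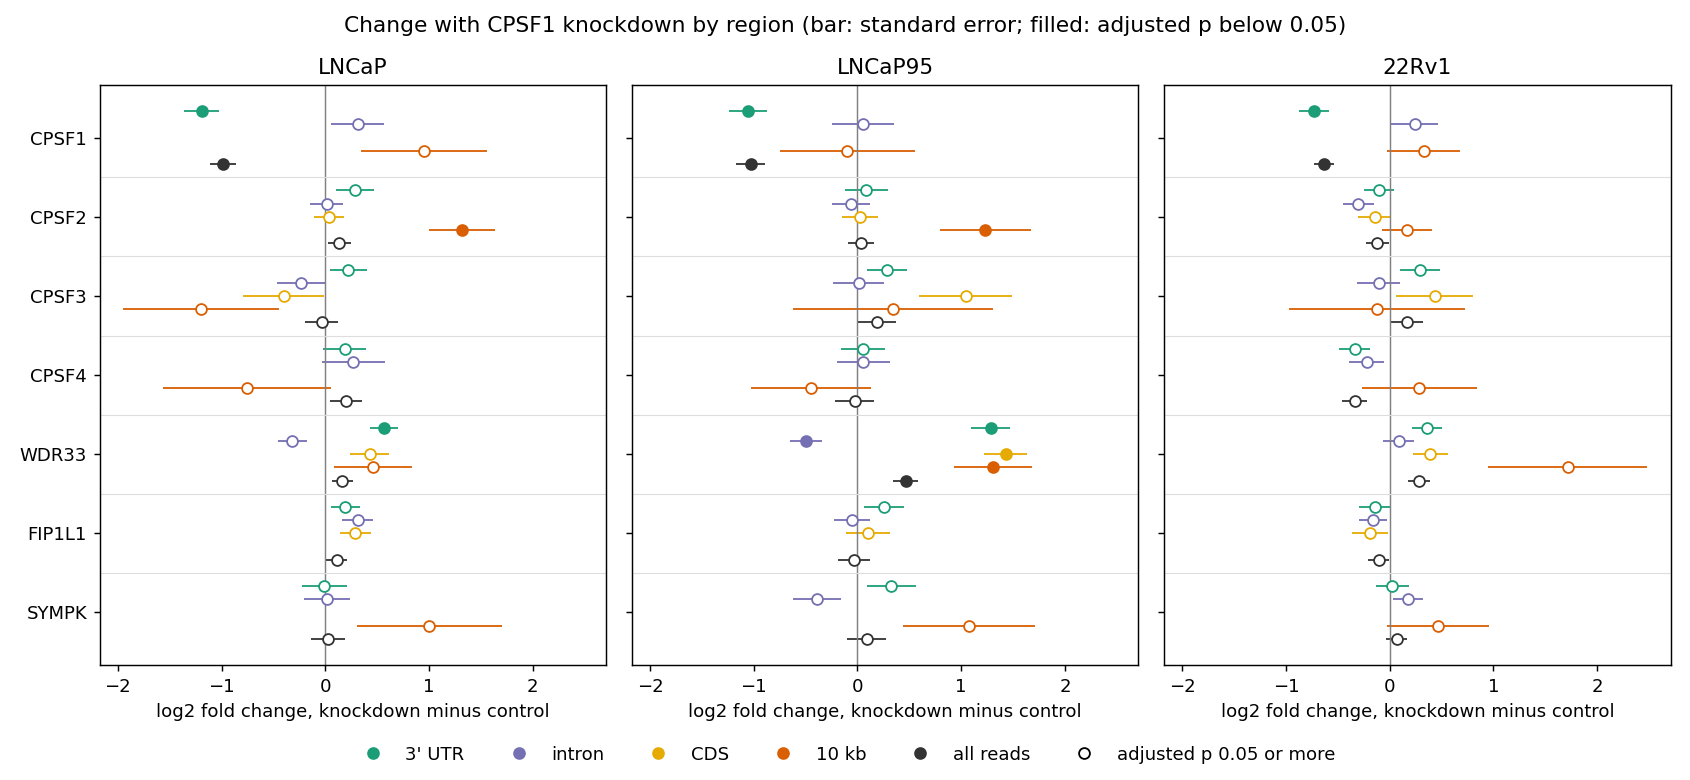
Log2 change after CPSF1 knockdown (6 knockdown against 3 control libraries) with its standard error for each gene, region and line, filled where the adjusted p was below 0.05. CPSF1 lies at -1.19, -1.05 and -0.73 in the 3′ UTR, and WDR33 reaches 1.29 there in LNCaP95.

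After knockdown a smaller share of CPSF1 reads was in its 3′ UTR. CPSF1 is the target of the shRNAs, so its 3′ UTR reads fall by design. Where its other regions do not fall with the 3′ UTR, their shares and ratios rise. Whether the shRNAs reach all CPSF1 transcripts alike was not tested. The shares and ratios therefore do not show whether its transcripts ended elsewhere. In control libraries 94.3%, 93.4% and 91.2% of CPSF1 reads were in the 3′ UTR in LNCaP, LNCaP95 and 22Rv1, and 85.8%, 85.2% and 79.5% after knockdown. The intron share was 4.88% ± 0.557, 5.68% ± 2.54 and 6.50% ± 1.28 (SD, n = 3) in control and 10.1% ± 2.08, 11% ± 1.68 and 13.6% ± 3.27 (SD, n = 6) after knockdown. The groups did not overlap in any line, whereas among all genes a higher intron share without overlap was found for 1.96%, 4.32% and 5.25%.

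The intron reads of CPSF1 themselves were not called, at 0.31 (adjusted p = 0.46), 0.05 (adjusted p = 0.924) and 0.24 (adjusted p = 0.661). Relative to its 3′ UTR the intron count of CPSF1 rose by 1.51 on the log2 scale (SE 0.274, adjusted p = 0.0013, edgeR) in LNCaP and 1.12 (SE 0.347, adjusted p = 0.0334) in LNCaP95. In 22Rv1 it was 0.94 (SE 0.279, adjusted p = 0.173). The LNCaP95 call was lost without any of 5 libraries, the lowest value being 0.67 (adjusted p = 0.233).

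Reads in the 10 kb after CPSF1, a region that overlaps ADCK5 on the opposite strand, made up 0.646%, 0.921% and 2.35% of its reads in control and 3.6%, 3.24% and 6.56% after knockdown. Control and knockdown libraries overlapped in LNCaP95 and not in the other lines. A higher 10 kb share without overlap was found for 19.8% of all genes in LNCaP and 22.5% in 22Rv1. The ratio to the 3′ UTR rose in LNCaP, by 2.20 (SE 0.604, adjusted p = 0.0151, edgeR), and stood at 0.97 (adjusted p = 0.243) in LNCaP95 and 1.03 (adjusted p = 0.0758) in 22Rv1. The LNCaP call was lost without control replicate 2 (1.72, adjusted p = 0.12) or sh2 replicate 1 (1.90, adjusted p = 0.0526), and the LNCaP libraries held 1 to 21 CPSF1 reads in that region. With summed library sizes the ratio was called in all 3 lines, at 2.63, 1.94 and 1.65.

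A smaller share of WDR33 reads ended in introns after knockdown in LNCaP and LNCaP95. In control libraries 44.1% ± 5.76 and 61.2% ± 8.81 (SD, n = 3) of its reads ended in introns, against 26.4% ± 3.78 and 29.6% ± 1.78 (SD, n = 6) after knockdown. The lowest control was at 40.1% and the highest knockdown library at 34.0% in LNCaP, and these bounds were 52.3% and 32.0% in LNCaP95. In 22Rv1 the share was 30.1% in both. Ends in the 3′ UTR pieces inside WDR33 were not counted as intron ends. The shares therefore do not separate early ends from ends at the end of the gene. A lower intron share without overlap was found for 2 of 6 partners in LNCaP (CPSF3 and WDR33), 1 of 6 in LNCaP95 (WDR33) and 0 of 6 in 22Rv1, and for 13.8%, 11.4% and 1.31% of all genes.

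The intron count of WDR33 in LNCaP95 was 170, 203 and 130 CPM in control, 116, 137 and 120 with sh1 and 103, 122 and 116 with sh2. The sh1 library at 137 was above the lowest control, so the groups overlapped. The log2 change was -0.50 (SE 0.153, adjusted p = 0.018, edgeR) and the call was lost without control replicate 1 (-0.49, adjusted p = 0.0673) or control replicate 2 (-0.33, adjusted p = 0.166). In LNCaP the change was -0.32 (adjusted p = 0.128) and in 22Rv1 0.09 (adjusted p = 0.834). Relative to its own 3′ UTR the intron count of WDR33 fell by 0.89 on the log2 scale (SE 0.224, adjusted p = 0.0219) in LNCaP and by 1.81 (SE 0.255, adjusted p = 4.29e-05) in LNCaP95. The LNCaP call was lost without any of 4 libraries. In 22Rv1 the ratio changed by -0.26 (adjusted p = 0.777). The 3′ UTR count includes the pieces inside the gene, so a lower ratio does not show more ends at the end of the gene.

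**Figure D3:**
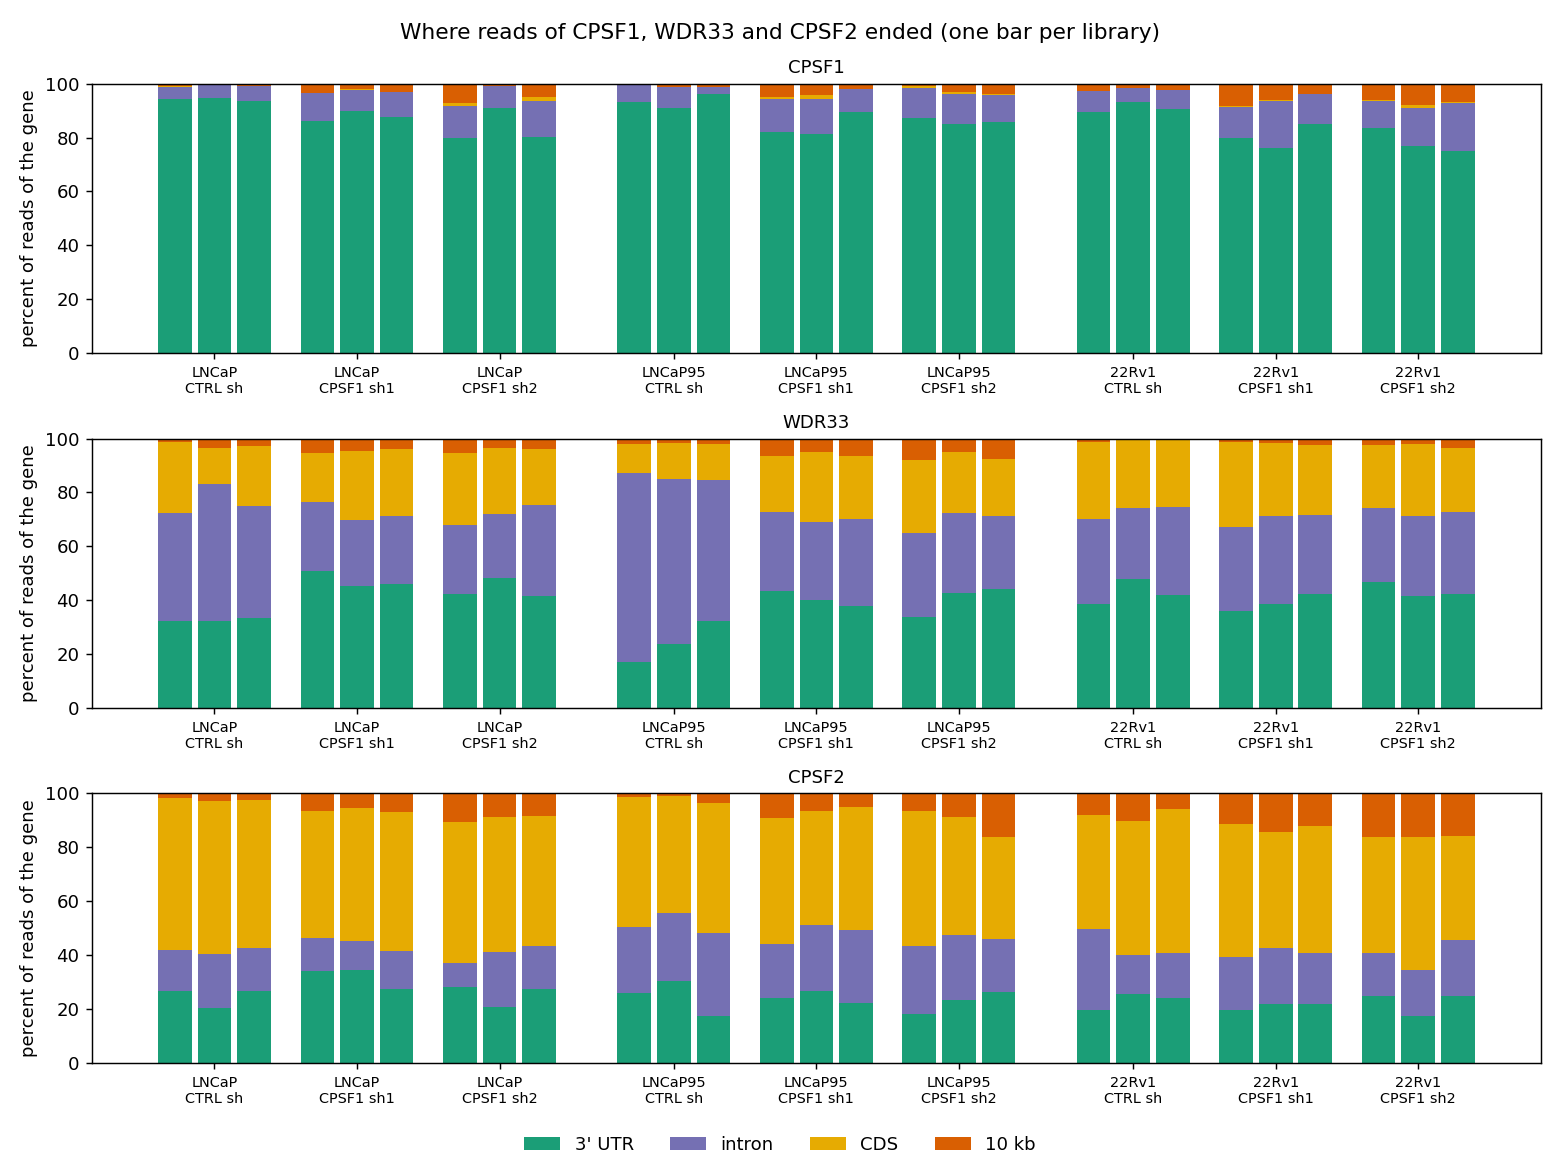
Percent of the reads of CPSF1, WDR33 and CPSF2 in each kind of region, 1 stacked bar per library, by line and shRNA. The intron part of WDR33 shrinks from 61.2% to 29.6% on average in LNCaP95, that of CPSF1 grows in all lines, and the 10 kb part of CPSF2 grows from 2.32% to 7.79% in LNCaP.

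In introns 0, 1 (lower) and 0 of 6 partners were called in LNCaP, LNCaP95 and 22Rv1, while 14.3%, 23.8% and 4.37% of all genes were. The unadjusted p was under 0.05 for 2 partners in LNCaP (WDR33 and FIP1L1) and none in 22Rv1, and DESeq2 gave the same counts. The direction of these calls over all genes depends on the scale: 60.7% of calls in LNCaP and 60.0% in 22Rv1 were higher, but with summed library sizes 22.5% and 95.5% were, as the median of all genes moved to -0.27 and 0.18. On that scale WDR33 was called lower in the introns of LNCaP as well, at -0.61 (adjusted p = 0.00911). For the ratio of introns to 3′ UTR, WDR33 was the partner called in LNCaP and LNCaP95 and 0 of 6 were called in 22Rv1, where none had an unadjusted p under 0.05, against 3.69%, 14.1% and 0.422% of all genes. Higher calls made up 64.9%, 36.7% and 84.6% of these, and 22.4%, 43.5% and 98.3% with summed library sizes.

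Within coding exons WDR33 went from 42.5, 68.5 and 48.6 CPM in LNCaP95 control libraries to 124, 161 and 132 with sh1 and 160, 143 and 137 with sh2. There was no overlap, and the log2 change was 1.43 (SE 0.208, adjusted p = 5.61e-05, edgeR), near that of its 3′ UTR. In LNCaP it was 0.43 (adjusted p = 0.208) and in 22Rv1 0.39 (adjusted p = 0.393). Only CPSF2, CPSF3, WDR33 and FIP1L1 passed the filter on low counts in coding exons. Of these 4, 0, 1 and 0 were called, and 7.1%, 12.5% and 1.01% of all genes. Higher calls were 53.4% of these in LNCaP and 56.0% in 22Rv1, and 34.1% and 28.6% with summed library sizes. The unadjusted p was under 0.05 for 1 partner in LNCaP (WDR33), for CPSF3 and WDR33 in LNCaP95, and for WDR33 in 22Rv1. The ratio of coding exons to 3′ UTR was called for 0 of the 4 in every line by edgeR, with an unadjusted p under 0.05 for none, and for 0.132%, 0.784% and 0.0218% of all genes. CPSF2 differs from the other members in that 56.1%, 46.5% and 48.4% of its reads in control libraries were counted in coding exons. Priming at A-rich sequence there was not tested.

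Downstream of the annotated end, CPSF2 gained reads in LNCaP and LNCaP95. In LNCaP the 10 kb region held 30.1, 46.1 and 47.9 CPM in control, 96.4, 94.4 and 100 with sh1 and 147, 83.1 and 97.2 with sh2. All knockdown libraries were above all controls. In LNCaP95 it held 21.8, 17.0 and 47.2 CPM in control, 86.7, 58.5 and 48.1 with sh1 and 41.6, 58.8 and 118 with sh2, where 1 knockdown library fell below the highest control. In 22Rv1 it held 118, 243 and 118 CPM in control, 151, 201 and 140 with sh1 and 178, 218 and 183 with sh2, and control replicate 2 was the highest of all. The log2 change was 1.32 (SE 0.320, adjusted p = 0.00114, edgeR) in LNCaP, 1.23 (SE 0.440, adjusted p = 0.0263) in LNCaP95 and 0.17 (SE 0.244, adjusted p = 0.75) in 22Rv1.

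The LNCaP95 call for CPSF2 was lost without control replicate 1 (1.06, adjusted p = 0.109), control replicate 2 (0.97, adjusted p = 0.135), sh1 replicate 1 (1.16, adjusted p = 0.0503) or sh2 replicate 3 (1.01, adjusted p = 0.107). The lower value in 22Rv1 was not shown to differ from LNCaP, at -1.10 (SE 0.437, adjusted p = 0.266). In LNCaP each shRNA was called, at 1.22 (adjusted p = 0.00771) and 1.41 (adjusted p = 0.000839). In LNCaP95 sh1 gave 1.14 (adjusted p = 0.0887) and sh2 1.32 (adjusted p = 0.0356). The sh2 call in LNCaP95 was lost without control replicate 1 (1.14, adjusted p = 0.113), control replicate 2 (1.06, adjusted p = 0.143) or sh2 replicate 3 (0.79, adjusted p = 0.37), and the sh1 call in LNCaP without control replicate 1 (1.05, adjusted p = 0.0671). The 3′ UTR of CPSF2 was not called, at 0.29 (adjusted p = 0.312) in LNCaP, and the ratio of the 2 regions was 1.02 (adjusted p = 0.108) in LNCaP and 1.09 (adjusted p = 0.139) in LNCaP95.

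As a share of all CPSF2 reads, which needs no scaling between libraries, the 10 kb region went from 2.32% ± 0.573, 2.00% ± 1.29 and 8.14% ± 2.25 (SD, n = 3) in LNCaP, LNCaP95 and 22Rv1 to 7.79% ± 1.76, 8.69% ± 4.0 and 14.3% ± 2.22 (SD, n = 6). Control and knockdown libraries did not overlap in any of the 3 lines, as was also found for 19.8%, 37.4% and 22.5% of all genes. The newer annotated end of CPSF2, with the AATAAA shown above, lies in this region, so reads there may be at an annotated end of the gene. The counts do not say where in the 10 kb a read fell.

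WDR33 gained 10 kb reads in LNCaP95. Its level was 36.3, 38.2 and 40.0 CPM in control, 113, 81.5 and 103 with sh1 and 96.4, 69.5 and 107 with sh2, from 9 to 51 reads a library. No knockdown library reached down to the controls, and the log2 change was 1.31 (SE 0.380, adjusted p = 0.00548, edgeR), with 1.37 (adjusted p = 0.0125) for sh1 and 1.24 (adjusted p = 0.0212) for sh2. The ratio to its own 3′ UTR was -0.02 (adjusted p = 0.973), as both counts rose. In LNCaP the 10 kb change was 0.46 (adjusted p = 0.482), and in 22Rv1 1.72 (adjusted p = 0.147) from 1 or 2 reads in each control library.

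**Figure D4:**
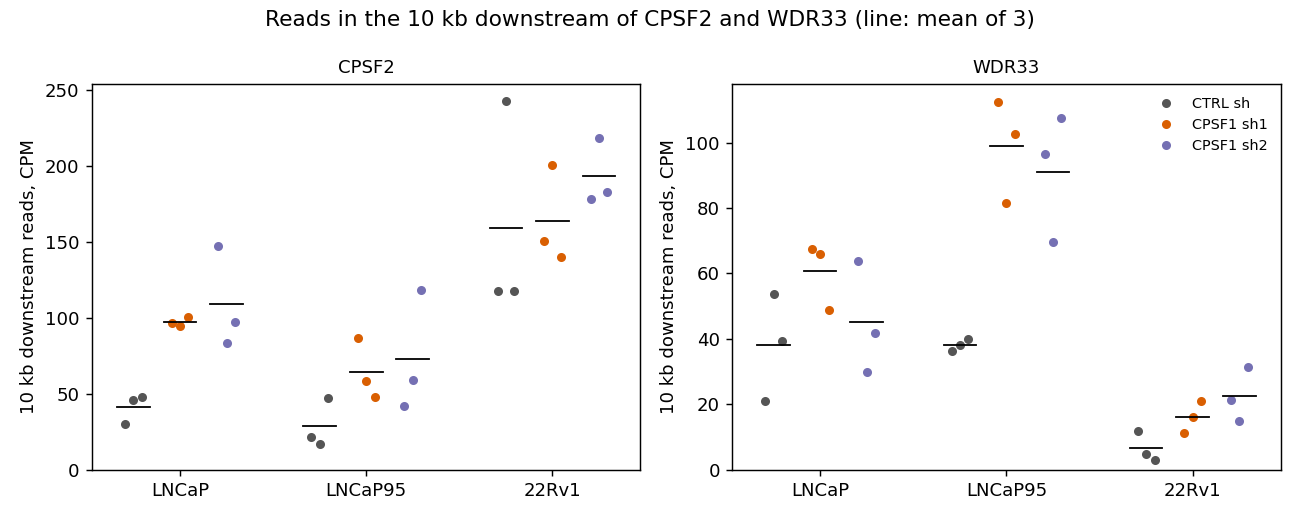
Level in the 10 kb downstream region (CPM of that table) of CPSF2 and WDR33 in each library, by line and shRNA, with group means. CPSF2 knockdown libraries lie above all controls in LNCaP, and WDR33 knockdown libraries do so in LNCaP95.

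SYMPK was not called in the 10 kb region, at 1.00 (adjusted p = 0.383) in LNCaP, 1.07 (adjusted p = 0.207) in LNCaP95 and 0.47 (adjusted p = 0.635) in 22Rv1. RSPH6A, on the same strand, covers all 9090 bases of this region, so reads there cannot be assigned to SYMPK alone. The region's share of SYMPK reads went from 1.26%, 1.54% and 2.23% in control to 4.08%, 5.64% and 4.17%. There was no overlap in LNCaP95 and 22Rv1, where the same held for 37.4% and 22.5% of all genes. CPSF3 and CPSF4 had at most 9 and 26 reads a library in their 10 kb regions and were not called. IAH1, on the same strand, covers 7727 of the 7984 bases of the CPSF3 region.

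FIP1L1 had 0 reads in its 10 kb region in all 27 libraries. The annotation behind the counts carries the gene through PDGFRA to position 55161439 of chromosome 4 and places the 10 kb region at 55164714 to 55171738. The newer annotation ends FIP1L1 at 54330549, within what was counted as its introns. Reads at or beyond that end were therefore counted as intron reads, and 71.5%, 56.2% and 53.6% of its control reads were in introns. Reads from the PDGFRA region may be among them.

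In the 10 kb region 5 partners passed the filter, and 1, 2 and 0 of them were called higher in LNCaP, LNCaP95 and 22Rv1, where 14.7%, 27.7% and 9.99% of all genes were called. In 22Rv1 the unadjusted p was under 0.05 for 1 partner, WDR33, and DESeq2 gave the same counts. The median log2 change of these partners was 0.46, 1.07 and 0.28, against 0.13, 0.22 and 0.19 for all genes. Their single values ran from -1.20 to 1.32, from -0.45 to 1.31 and from -0.12 to 1.72. The difference of these medians from all genes was not tested. Higher calls made up 64.7%, 63.4% and 72.6% of all calls. With library sizes summed over the 4 tables they made up 94.3%, 95.6% and 97.9%, and the median of all genes rose to 0.62, 1.11 and 0.73. On that scale CPSF2 and WDR33 were called in 22Rv1 too, at 0.73 (adjusted p = 0.0317) and 2.25 (adjusted p = 0.0246), and SYMPK in LNCaP95 at 1.97 (adjusted p = 0.0116).

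For the ratio of the 10 kb region to the 3′ UTR, 0 of 5 partners were called in any line by edgeR, against 10.3%, 28% and 7.45% of all genes. The unadjusted p was under 0.05 for 2 partners in LNCaP (CPSF2 and CPSF3) and none in the other lines. With summed library sizes 1, 2 and 2 were called, among them CPSF2 in every line at 1.49, 2.09 and 0.94, and the higher share of all such calls went from 81.1%, 75.7% and 89.2% to 96.4%, 97.1% and 99.5%. A higher 10 kb share of reads without overlap was seen for 1, 3 and 2 of the 5 partners in LNCaP, LNCaP95 and 22Rv1, and for 19.8%, 37.4% and 22.5% of all genes. Per shRNA, the 10 kb calls over all genes were 10.3%, 20.2% and 6.46% with sh1 and 14.4%, 24% and 12% with sh2.

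In cells with the control shRNA the members also differed between lines. The 3′ UTR level, scaled over all 27 libraries, was called for 5 of 7 members between LNCaP95 and LNCaP, 3 of 7 between 22Rv1 and LNCaP and 5 of 7 between 22Rv1 and LNCaP95, and for 41.9%, 49.3% and 56.8% of all genes. FIP1L1 was at 85.5 ± 7.32 CPM in LNCaP, 138 ± 29.5 in 22Rv1 and 213 ± 38.6 in LNCaP95 (SD, n = 3), and each step was called, at 0.69 (adjusted p = 0.00515, edgeR) from LNCaP to 22Rv1 and 1.32 (adjusted p = 3.08e-06) from LNCaP to LNCaP95. The first was lost without 22Rv1 control replicate 3 (0.53, adjusted p = 0.0581), and the step between 22Rv1 and LNCaP95 (-0.62, adjusted p = 0.00865) was lost without 22Rv1 control replicate 2 (-0.46, adjusted p = 0.0804). In all reads of the gene, FIP1L1 was at 299 CPM in LNCaP and 290 in 22Rv1, and this step was not called (-0.04, adjusted p = 0.828, edgeR). LNCaP95 was higher there too, at 545 CPM (0.87 against LNCaP, adjusted p = 2.52e-06). The counted 3′ UTR of FIP1L1 stops at 54327328, before its newer annotated end. Its all-reads level may include reads from the PDGFRA region. CPSF1 was at 154 ± 25.5 CPM in LNCaP and 160 ± 36.6 in 22Rv1, which were not distinguished (adjusted p = 0.883), and lower at 91.3 ± 22.5 in LNCaP95.

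CPSF2 and SYMPK, like CPSF1, had their lowest level in LNCaP95. CPSF2 was at 40.7 ± 9.58 CPM in LNCaP, 34.2 ± 3.96 in 22Rv1 and 18.9 ± 5.09 in LNCaP95. SYMPK was at 45.8 ± 11.3, 55.4 ± 8.08 and 28.1 ± 1.68 CPM in these lines, and for both genes only the LNCaP95 level was called different from the others. WDR33 was at 45.0 ± 4.59 CPM in LNCaP, above 33.5 ± 3.57 in 22Rv1 and 26.1 ± 8.95 in LNCaP95, with 22Rv1 and LNCaP95 not distinguished (adjusted p = 0.104). The call between LNCaP and 22Rv1 (-0.44, adjusted p = 0.0416, edgeR) was lost without any of 11 of the 27 libraries (adjusted p up to 0.151). It was also lost with summed library sizes (adjusted p = 0.0731), with a filter in every library (0.0569) and from control libraries alone (0.141). In all reads of the gene the order was another, with WDR33 at 74.9 CPM in LNCaP, 63.1 in LNCaP95 and 42.5 in 22Rv1. There 22Rv1 was called lower than LNCaP (-0.82, adjusted p = 4.43e-07, edgeR) and lower than LNCaP95 (-0.57, adjusted p = 9.00e-05). LNCaP95 minus LNCaP was not called in all reads (-0.25, adjusted p = 0.0752). CPSF4 was highest in 22Rv1, at 97.7 ± 27 CPM against 61.3 ± 15.9 in LNCaP95 and 46.7 ± 4.36 in LNCaP. CPSF3 was at 24.0 ± 3.38, 20.8 ± 5.83 and 25.1 ± 7.89 CPM in LNCaP, LNCaP95 and 22Rv1, with no call.

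**Figure D5:**
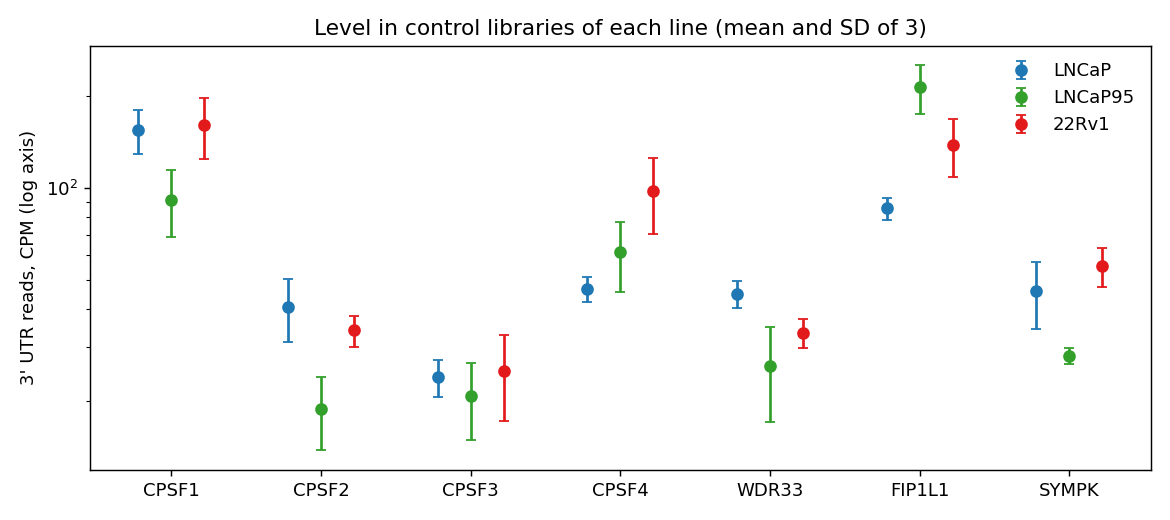
3′ UTR level of each gene in the control libraries of the 3 lines (CPM over 27 libraries, log axis, mean and SD of 3). FIP1L1 runs from 85.5 in LNCaP to 213 in LNCaP95, and CPSF1, CPSF2, SYMPK and WDR33 have their lowest mean in LNCaP95, for WDR33 not distinguished from 22Rv1. In all reads, not drawn here, WDR33 was lowest in 22Rv1.

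Across the 27 libraries, with each line centred on its own mean, the genes whose 3′ UTR log level was most like that of CPSF1 among 7406 genes were RPL13 (r = 0.924), LAMTOR2 (r = 0.920) and CHMP2A (r = 0.913). WDR33 (r = -0.69) and CPSF3 (r = -0.70) had the lowest values among members, and CPSF4 the highest (r = 0.35). These libraries share the knockdown contrast, so the values describe it again and are no separate result.

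Of 14 other polyadenylation factors, 2 were called higher and 1 lower in the 3′ UTR in LNCaP. LNCaP95 had 3 higher and 1 lower and 22Rv1 had 0, with median log2 changes of 0.30, 0.20 and 0.04. Of all genes 18.3%, 30.5% and 1.47% were called there, so the factors' counts are near the background and the named genes are given as values. PCF11, which couples cleavage to termination, rose by 0.76 (adjusted p = 0.0164, edgeR) in LNCaP and 0.92 (adjusted p = 0.00118) in LNCaP95. NUDT21, the subunit of CFIm that binds UGUA, fell by 0.41 (adjusted p = 0.0316) and 0.40 (adjusted p = 0.0227). CSTF3, a CstF subunit, rose by 0.57 (adjusted p = 0.0474) in LNCaP. CSTF2, which binds the downstream element, rose by 0.73 (adjusted p = 0.0414) in LNCaP95 and the nuclear poly(A)-binding protein PABPN1 by 0.74 (adjusted p = 0.00691).

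In introns 0 were called in LNCaP and 22Rv1, and in LNCaP95 1 rose and 4 fell, of 11, 12 and 11 tested in LNCaP, 22Rv1 and LNCaP95. All genes were called at 14.3%, 4.37% and 23.8%. As with WDR33, PCF11 had fewer intron reads in LNCaP95, from 190 to 234 CPM in control to 54.3 to 90.8 after knockdown, a log2 change of -1.52 (SE 0.154, adjusted p = 2.16e-08, edgeR). PAPOLG, a poly(A) polymerase, fell by 1.05, RBBP6 by 0.72 and CPSF6 by 0.45, and CSTF3 rose by 0.78.

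In the 10 kb region 2, 4 and 2 were called higher and 0 lower in LNCaP, LNCaP95 and 22Rv1, of 12, 13 and 13 tested. Beside them stand 14.7%, 27.7% and 9.99% of all genes, and the share of higher calls rests on the scale as given above. CSTF3 was called in all 3 lines. Its control libraries held 0 to 9.34 CPM and its knockdown libraries 49.8 to 73.7 CPM for LNCaP, 52.4 to 113 CPM for LNCaP95 and 56.0 to 115 CPM for 22Rv1 (adjusted p = 9.08e-09, 9.42e-10 and 1.08e-09, edgeR). The groups were far apart in each line, and some controls had 0 reads, so no fold is given. CSTF2T, a relative of CSTF2, was called in LNCaP (adjusted p = 1.99e-05) and 22Rv1 (adjusted p = 0.00353), and CPSF7, PCF11 and RBBP6 in LNCaP95.

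In coding exons 3, 3 and 2 were called, all higher, of 6, 6 and 7 tested, while 7.1%, 12.5% and 1.01% of all genes were called. CSTF3 rose by 1.66, 1.71 and 1.10 and PCF11 by 0.84, 0.93 and 0.75 in LNCaP, LNCaP95 and 22Rv1. PAPOLA, the main poly(A) polymerase, rose by 0.51 in LNCaP and 0.72 in LNCaP95. In all reads 4 rose and 1 fell in LNCaP. LNCaP95 had 4 that rose and 2 that fell, and 22Rv1 had 1 that rose, of 14 tested in each, beside 27.5%, 34.3% and 7.57% of all genes. CSTF3 (0.82), CSTF2T (0.79), PCF11 (0.71) and XRN2 (0.27), a nuclear exonuclease of termination, rose in LNCaP. CSTF2 (0.75), CSTF2T (0.74), PABPN1 (0.62) and CSTF3 (0.60) rose in LNCaP95, and PCF11 (0.53) in 22Rv1. Those that fell were NUDT21, by 0.33 and 0.49, and PAPOLG, by 0.76 in LNCaP95.

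Among 4 factors of histone mRNA 3′ end processing, in which CPSF2, CPSF3 and SYMPK also take part, LSM10 was called in the 3′ UTR in LNCaP95 (0.78, adjusted p = 0.00584, edgeR). The intron reads of SLBP, the histone stem-loop binding protein, fell by 1.06 in that line. LSM10 was called lower in the 10 kb region there (-1.36, adjusted p = 1.79e-05). LSM11 was called in coding exons in LNCaP95 from 0 to 8 reads a library, all control libraries at 0, and in all reads in 22Rv1 (0.93, adjusted p = 0.0451). Of the paralogs, CPSF3L, the Integrator endonuclease related to CPSF3, fell by 0.56 (adjusted p = 0.0266) in the 3′ UTR and by 0.61 (adjusted p = 0.00782) in all reads in LNCaP95, while INTS9 was not called in the 3′ UTR. In LNCaP95, 1 of 4 histone factors was called in each of 3′ UTR, introns and 10 kb region, and 1 of 2 tested in coding exons. Of all genes, 30.5%, 23.8%, 27.7% and 12.5% were called there. In 22Rv1 all reads it was 1 of 4, beside 7.57% of all genes. Among 2 paralogs tested in LNCaP95, 1 was called in the 3′ UTR and in all reads, beside 30.5% and 34.3%. These few calls are given as values only.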

How the data were processed

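PAC-seq was read from 27 libraries, grouped by their titles. The 4 deposited tables hold raw counts of reads by gene. They cover introns, coding exons, 3′ UTRs lengthened by 300 bases, and the 10 kb downstream, from which exons on the same strand were removed. Per the labels and the study's methods, reads were trimmed with DPAC, mapped with HISAT2 2.1.0 to GRCh37 and counted by their 3′-most base with Subread 2.0.3 on the gene's strand. Reads at A-rich sequence (internal priming) can enter the counts, among them those of introns, coding exons and the 10 kb regions. No columns were left unmatched, and 0 pairs of libraries were identical.

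Tests used edgeR 4.0.16 (quasi-likelihood, R 4.3.3), 3 control against 6 knockdown libraries per line. Each table was scaled by its own totals and TMM factors, so a rise shared by all 10 kb regions is removed. Genes entered a fit with a mean above 2 CPM. Benjamini-Hochberg adjustment ran over all of them, and a call means an adjusted p under 0.05. Intervals are 95%, for each gene by itself. All reads are sums over the tables. Ratios were tested as a region-by-knockdown term with library as a factor. shRNAs were fitted as 3 groups, and lines as line-by-knockdown terms over 27 libraries. Shares are percents of a gene's reads. For levels in CPM, how many of all genes had groups without overlap was not counted. Such a separation in CPM is therefore a description only. CPM between genes were not compared. Alternatives were DESeq2 1.42.0, other filters, a replicate block, library sizes summed over the 4 tables with TMM factors from 3′ UTRs, and each library left out in turn.

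The members and lists were chosen with earlier results of these data known. All 7 members are named, and other factors where called. In counts simulated on the LNCaP95 comparison, 90% of 2-fold rises were found in the 3′ UTR (11164 genes), 18% in the 10 kb region (14163 genes) and 2% in the 10 kb ratio (9841 genes). For 4-fold rises these were 100%, 72% and 54%, and for 2-fold falls 61.7%, 6% and 0%. Only 45 to 50 genes were changed at each fold. In the LNCaP95 data 30.5% of genes were called in the 3′ UTR and 27.7% in the 10 kb region. The adjustment is stricter when fewer genes change, so these rates may differ from those in the data. The sequence at 1 end of WDR33 is not reported here.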

Additional observations from a re-analysis of the deposited data

Results flagged for a closer look

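The rise of WDR33 in 3′ UTR reads differed between cell lines by a test of the difference itself, in a line-by-knockdown term fitted with edgeR over 27 libraries. LNCaP95 minus LNCaP was 0.73 on the log2 scale (SE 0.212, adjusted p = 0.0243), and 22Rv1 minus LNCaP95 was -0.92 (SE 0.219, adjusted p = 0.00568). Its level went from 28.3 to 68.9 CPM in LNCaP95, from 41.5 to 61.4 CPM in LNCaP and from 33.3 to 42.0 CPM in 22Rv1 (means of 3 control and 6 knockdown libraries). The LNCaP95 controls were spread from 17.6 to 36.6 CPM. LNCaP95 minus LNCaP was not called without any of 3 libraries, falling to 0.47 (adjusted p = 0.135) without LNCaP95 control replicate 1. With summed library sizes it was 0.59 (adjusted p = 0.0804). The difference 22Rv1 minus LNCaP was not called (-0.19, adjusted p = 0.699). In all reads of WDR33, neither LNCaP95 minus LNCaP (adjusted p = 0.113) nor 22Rv1 minus LNCaP95 (adjusted p = 0.452) was called.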

How the results depend on the processing

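Processing alternatives moved 9 of 174 counts of members or partners called by over 1.5 times and changed the call of 8 of 156 gene values, and 0 reversed. With library sizes summed over the tables, partners called went from 0 to 1 in LNCaP introns (WDR33), from 0 to 2 in the 22Rv1 10 kb region (and from 2 to 3 in that of LNCaP95), and from 0 to 1, 2 and 2 in the ratio of 10 kb to 3′ UTR. The members whose effect differed between LNCaP95 and LNCaP went from 1 to 0. Without TMM, all reads in 22Rv1 went from 0 to 1 (WDR33, 0.40). The WDR33 control difference between 22Rv1 and LNCaP was -0.40 with summed library sizes, -0.41 with a filter in every library and -0.43 from control libraries alone, none called.

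Same-number correlations of 3′ UTR deviations ran from -0.26 to 0.39 and different-number ones from -0.42 to 0.39, so the main fits used no pairing. In 22Rv1 the same-number pairs of control with sh1 were at 0.39, 0.25 and 0.12. Those of control with sh2 were at -0.14, -0.14 and 0.02. With a replicate block, partners called with sh2 in the LNCaP 3′ UTR went from 1 to 0 (WDR33, 0.53, adjusted p = 0.0593), as with each shRNA fitted alone (0.53, adjusted p = 0.0654).

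Leaving out single libraries moved 41 of 621 counts by over 1.5 times and changed the call or direction of 64 of 522 values, and 1 reversed (CPSF2, 10 kb, 22Rv1, from -0.0418 without control replicate 3 to 0.578 without control replicate 2). Partners called ranged from 0 to 1 in LNCaP (3′ UTR, intron ratio, sh1 and sh2 3′ UTR, sh1 10 kb), in LNCaP95 (introns, all reads, 10 kb ratio) and in 22Rv1 all reads (CPSF4, -0.49, without control replicate 2). In LNCaP95 they ranged from 1 to 2 for the 10 kb region and for sh1 and sh2 in the 3′ UTR, and from 0 to 2 for each shRNA in the 10 kb region. Members called ranged from 0 to 1 for the LNCaP95 minus LNCaP effect, and in controls from 3 to 5 for LNCaP95 minus LNCaP, from 1 to 3 for 22Rv1 minus LNCaP and from 4 to 6 for 22Rv1 minus LNCaP95.

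Genes called moved by over 1.5 times as follows. With summed library sizes they went from 169 to 294 in the 22Rv1 3′ UTR (387 with DESeq2), from 348 to 220 in LNCaP coding exons, from 50 to 7 in those of 22Rv1 (80 unfiltered, 88 with DESeq2) and from 1436 to 2758 in the 22Rv1 10 kb region. The 10 kb ratio went from 970 to 1499, 2834 to 4868 and 752 to 2562 in LNCaP, LNCaP95 and 22Rv1. The intron ratio went from 322 to 496 and 1291 to 791 in LNCaP and LNCaP95, and in 22Rv1 from 39 to 63 with a filter in every library and 64 unfiltered. The coding exon ratio went from 6 to 1 (11 unfiltered, 2 with the block), 36 to 17 (22 with the block) and 1 to 0 (4 unfiltered). With shRNAs fitted alone, 22Rv1 3′ UTR calls went from 51 to 3 for sh1, 400 to 242 for sh2 and 6 to 212 between them (4 with the block), and sh1 10 kb calls from 929 to 618. In the 10 kb region, sh2 minus sh1 calls in 22Rv1 went from 25 to 170 fitted alone and 14 with the block (LNCaP95 from 1 to 0 fitted alone), and with summed library sizes the LNCaP95 minus LNCaP effect went from 366 to 572 calls and 22Rv1 minus LNCaP from 148 to 96. Few reads in the 10 kb region and coding exons limit what could be called there.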
